A study of Mus musculus with 9 samples.

Results

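The cells described here were sorted as Lin- cKit+ Sca1+ (LSK) bone marrow cells, the compartment of mouse stem cells and multipotent progenitors, and were picked out because they carried transcripts of monocytes and dendritic cells without that of neutrophil elastase. A cell was taken as a member when at least 3 of the 6 genes Cybb, Ccr2, F13a1, Ly86, Ly6c2 and Irf8 had 1 or more unique molecular identifiers (UMIs, each standing for 1 captured transcript) and Elane had none. Of 15975 cells with 1000 to 40000 UMIs, at most 6000 genes and at most 10% mitochondrial UMIs, 98 met this rule, which is 0.613% (95% Wilson interval 0.504% to 0.747%). The cells were thus chosen by the detection of these 6 genes and of Elane, and their levels are given as a description with no test.

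The study compared LSK cells of C57BL/6 mice in 3 groups with 3 libraries each: young mice of 10 to 12 weeks, aged mice of over 80 weeks, and aged mice given CASIN, an inhibitor of the small GTPase Cdc42, injected intraperitoneally 4 times, 24 h apart, at 25 mg/kg, with harvest on day 5. The young and aged controls received the cyclodextrin vehicle. All cells had been frozen viably and thawed before the sort, which removed cells bearing Cd11b, Ter119, Cd8, Cd5, B220 or Gr1. The libraries were sequenced in 2 batches. From the young group, replicates 1 and 2 were in batch 1 and replicate 3 in batch 2. From the aged group, replicate 1 was in batch 1 and the others in batch 2. From the CASIN group, only replicate 3 was in batch 2. Each library held 19237354 to 42780953 UMIs over all its barcodes.

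Monocytes and dendritic cells arise from shared myeloid precursors in the marrow. The transcription factor Irf8 directs precursors toward monocyte and dendritic fates, and cells that instead take the neutrophil path switch on granule proteases such as Elane. Plasmacytoid dendritic cells, which release type I interferon, and the Xcr1-bearing conventional dendritic cells, which present antigen taken up from dying cells, both depend on this network.

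The label of monocyte and dendritic-primed progenitors held for only some of the 98 cells. In 30 of them (30.6%, 95% Wilson interval 22.4% to 40.3%) immunoglobulin heavy and light chain genes took 40.5% to 80.6% of all UMIs, and these cells also carried Jchain, the chain that joins secreted antibody units. In 4 further cells this share was 1.21% to 6.95%. In the other 64 it was at most 0.256%, and no member lay between 6.95% and 40.5%. The bounds of 1% and 10% that part these sets were chosen after the values were seen. The 3 sets are called immunoglobulin-rich, intermediate and immunoglobulin-poor below.

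The immunoglobulin-rich cells stood apart by batch. Young replicates 1, 2 and 3 held 8, 14 and 9 members, of which 0, 0 and 6 were immunoglobulin-rich. Aged replicates 1, 2 and 3 held 6, 7 and 23 members, of which 0, 3 and 13 were immunoglobulin-rich. CASIN replicates 1, 2 and 3 held 6, 17 and 8 members, of which 0, 1 and 7 were immunoglobulin-rich. Batch 2 thus supplied 29 of the 30 immunoglobulin-rich members but only 16 of the 64 immunoglobulin-poor ones. Because 6 of 9 libraries had under 10 members, no gene was tested between groups, and levels are given for pooled cells.

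**Figure D1:**
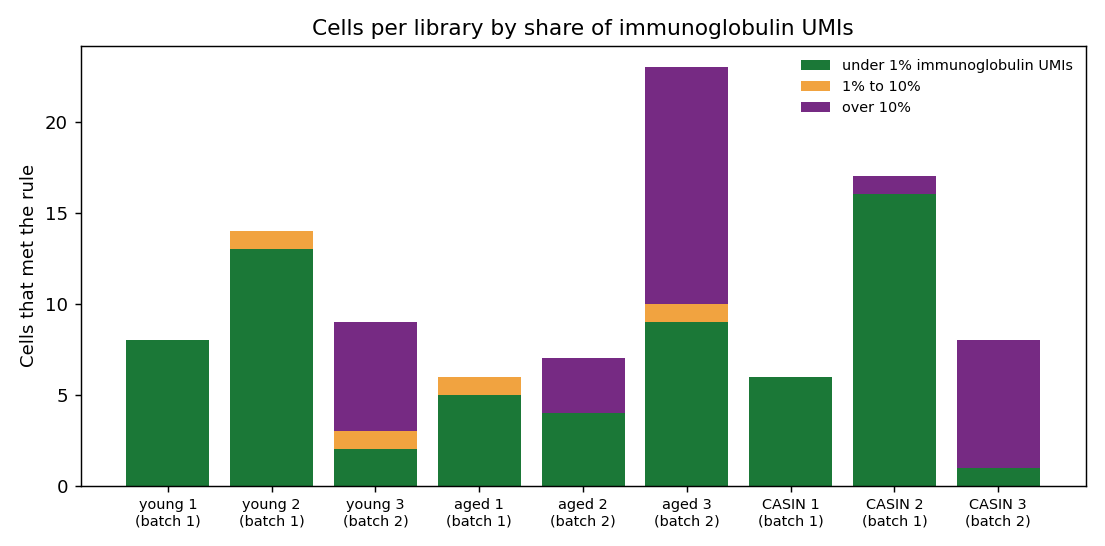
Number of cells that met the rule in each of the 9 libraries, with bars stacked by the share of a cell's UMIs in immunoglobulin genes. Purple blocks, the cells over 10%, stand in the 4 libraries of batch 2 and as 1 cell in CASIN replicate 2.

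**Figure D2:**
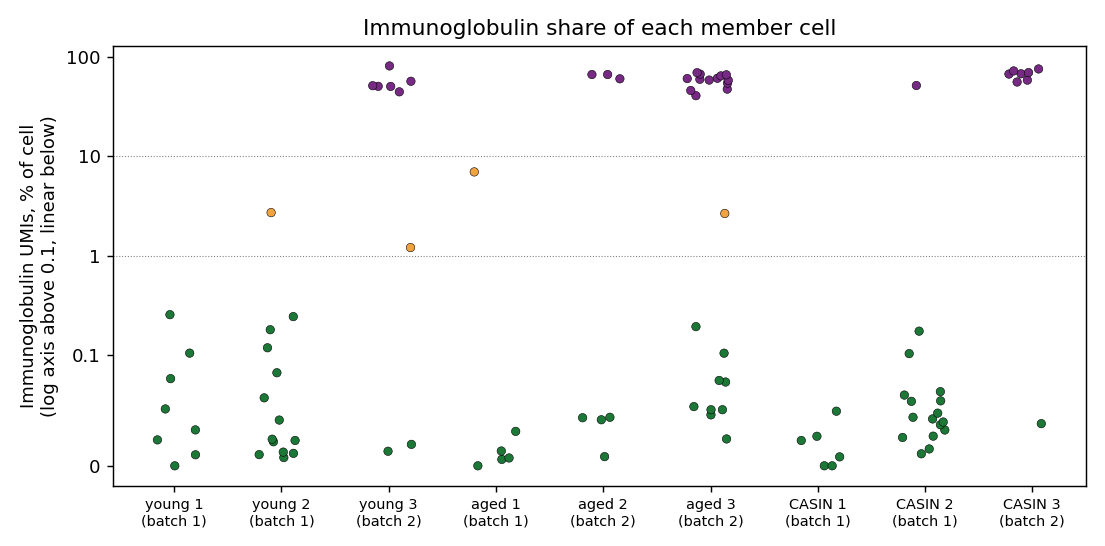
Share of immunoglobulin UMIs in each of the 98 cells by library, on an axis that is logarithmic above 0.1% and linear below, with dotted lines at 1% and 10%. The points fall into a cloud at or below 0.256%, 4 cells from 1.21% to 6.95%, and a cloud from 40.5% to 80.6%.

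Immunoglobulin-rich cells were not particular to the members. Among all 15975 cells 117 had at least 10% of their UMIs in immunoglobulin genes, 39 in batch 1 and 78 in batch 2, and 30 of them met the rule. The study's methods further removed cells whose log gene number lay over 0.4 from its regression on log UMIs. On these files that filter took out 119 cells, of which 116 were immunoglobulin-rich, and with it all 30 immunoglobulin-rich members, leaving 68 members among 15856 cells (0.429%). The selection used here did not include that filter. Igkc was also detected outside these cells. Among cells with Procr and Mecom, genes of stem cells, which should lack Igkc, the share with at least 1 Igkc UMI was 0.244% to 55.7% across the libraries of batch 1 and 55.2% to 98.0% across those of batch 2. The part of such background in the results was not tested.

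The 6 genes met in different combinations in the 2 main sets. The first pair shown here is the one detected in all 30 immunoglobulin-rich members. Cybb encodes the catalytic subunit of the phagocyte NADPH oxidase and lies at chrX:9435252-9487771, and Ly6c2 encodes the Ly6C surface antigen of inflammatory monocytes and lies at chr15:75108158-75111970, both on the minus strand (GRCm38, GENCODE gene bounds). Their RefSeq promoter windows on GRCm38.p6, 250 bases before to 50 after a transcript start and written 5′ to 3′ on the minus strand, span chrX:9469275-9469574 for Cybb and chr15:75111922-75112221 for Ly6c2. Capitals mark GAGGAA or its reverse complement TTCCTC, letters that lie in many binding sites of the Ets family of myeloid regulators. These letters occur on either strand in 28.3% of the 32851 promoter windows in the table.
Cybb: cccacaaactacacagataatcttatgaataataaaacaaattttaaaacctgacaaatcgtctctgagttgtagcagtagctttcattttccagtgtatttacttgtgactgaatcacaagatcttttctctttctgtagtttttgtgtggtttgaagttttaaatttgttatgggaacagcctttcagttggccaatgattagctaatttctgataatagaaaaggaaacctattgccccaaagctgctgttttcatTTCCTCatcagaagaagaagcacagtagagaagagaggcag
Ly6c2: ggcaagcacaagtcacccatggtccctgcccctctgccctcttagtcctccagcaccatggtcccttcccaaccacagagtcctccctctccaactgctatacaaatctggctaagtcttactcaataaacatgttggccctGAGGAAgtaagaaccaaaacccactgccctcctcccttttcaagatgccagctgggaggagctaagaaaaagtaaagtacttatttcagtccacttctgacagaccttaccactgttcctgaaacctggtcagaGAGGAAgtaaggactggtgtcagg
The Cybb window held 1 such match, and the 2 overlapping windows of Ly6c2, of which 1 is shown, held 2 each. The 2 windows of F13a1 held 2 and 1, and no window of Ccr2, Ly86 or Irf8 held one. The letters thus did not set the pair apart from F13a1, which had no UMI in the immunoglobulin-rich cells. A match is a run of letters and was not tested as a binding site.

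In the immunoglobulin-rich cells Ly6c2 had 1 to 131 UMIs per cell (median 20.5) and Cybb 1 to 14 (median 4.5). Irf8 was detected in 29 of the 30, with a median of 1 UMI per cell and a maximum of 11. Ly86 was detected in 1 of them, and Ccr2 and F13a1 in none. The combination Cybb, Ly6c2 and Irf8 accounted for 29 of these 30 cells and for none of the immunoglobulin-poor ones. No immunoglobulin-rich member had over 3 rule genes. Among the 87 immunoglobulin-rich cells outside the rule, 30 had Cybb and Ly6c2 but no Irf8 UMI, and their whole set had a median of 7687 UMIs per cell against 34127 in the 30 members. Detection of Irf8 thus parted these 30 cells from the members. In Procr and Mecom positive cells, at a median of 10842 UMIs, Irf8 had a UMI in 6.51% of cells, from 1.20% to 5.86% by library in batch 1 and from 6.85% to 18.3% in batch 2, while each of the other 5 genes had one in at most 0.411% over all libraries and at most 1.95%, for Ly6c2, in a single library.

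In the 64 immunoglobulin-poor cells, at a median of 22018 UMIs, Ly86 and Irf8 were each detected in 63. Ly86, at chr13:37345208-37419036, encodes the MD-1 partner of the Toll-like receptor homolog Cd180, and had a median of 4 UMIs and a maximum of 12. Irf8, at chr8:120736358-120756694, had a median of 11.5 UMIs and a maximum of 70. Ly6c2 and F13a1, the latter encoding the transglutaminase of coagulation factor XIII and lying at chr13:36867178-37050244, were each detected in 29 cells. Ccr2, the receptor for monocyte chemoattractants at chr9:124101950-124113557, was detected in 26 and Cybb in 23. The commonest combinations in these cells were Ccr2, Ly86 and Irf8 in 12 cells and F13a1, Ly86 and Irf8 in another 12. All 6 genes were detected in 5 cells. Ly6c2 has a near-identical neighbor, Ly6c1, which had no UMI in the immunoglobulin-poor members and 1 UMI in 1 immunoglobulin-rich member, so how reads were split between them is uncertain.

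**Figure D3:**
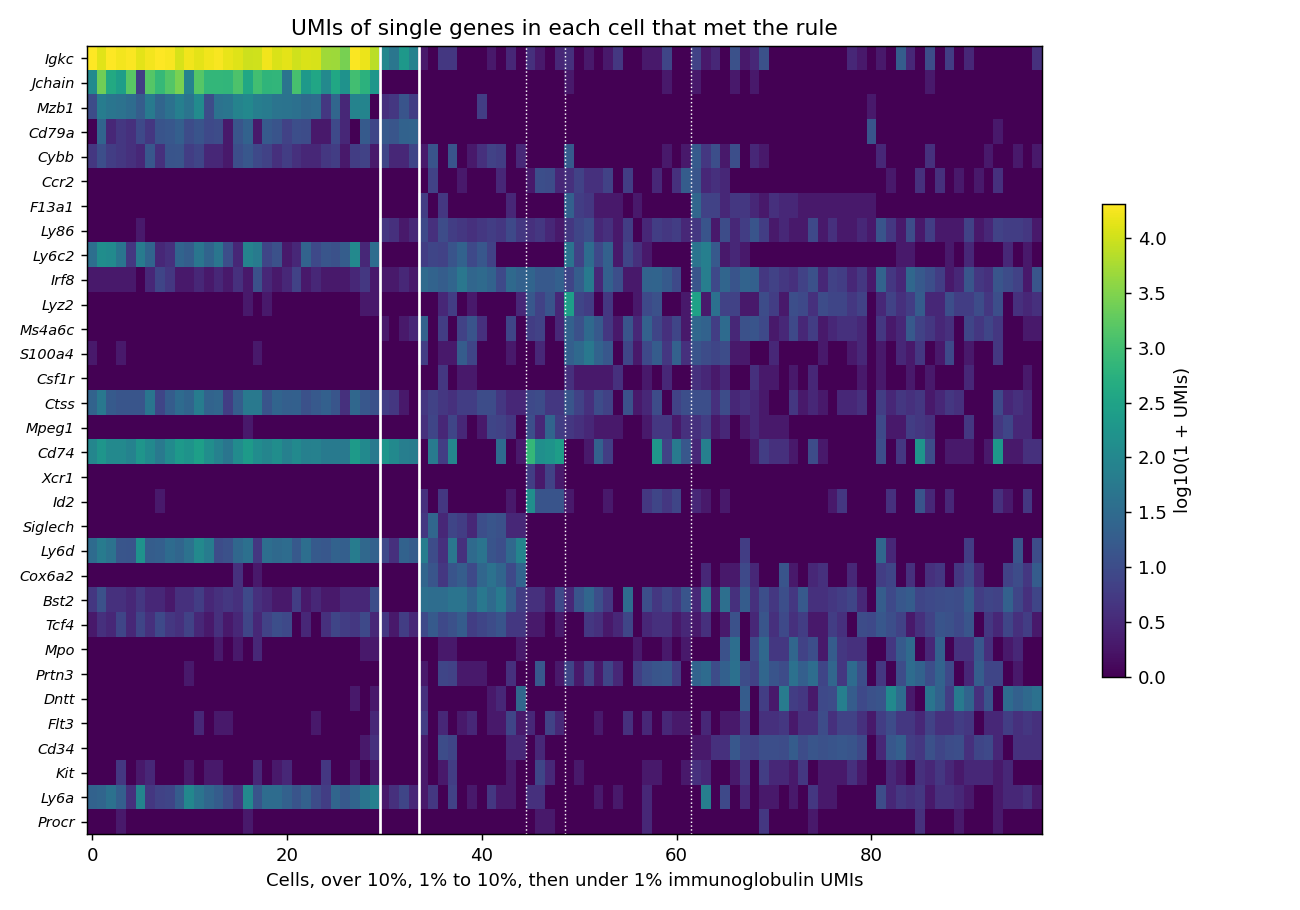
UMIs of 32 genes (rows, colored by log10 of 1 plus UMIs) in each of the 98 cells (columns). Solid lines part the 30 cells over 10%, the 4 cells from 1% to 10% and the 64 cells under 1% immunoglobulin UMIs, and dotted lines part the last set into 11 cells with Siglech, 4 with Xcr1, 13 with none of Siglech, Xcr1, Cd34 and Dntt, and 36 with Cd34 or Dntt.

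The immunoglobulin-poor cells carried genes of the myeloid lineages beyond those of the rule. Of 25 monocyte genes outside the rule, 20 were at least doubled in the pooled cells against all other LSK cells and none was at most halved (median log2 ratio 2.24), where 4.92% of the 13223 genes with 100 or more UMIs were at least doubled and 14.6% at most halved (median log2 ratio -0.20). All ratios of this kind compare CPM, the UMIs of a gene scaled to a fixed total of UMIs outside immunoglobulin genes, with 1 CPM added to both sides. The summed level of the list was 6265 CPM in these cells and 1327 CPM in the other cells. Lgals1, a secreted galectin, was its most abundant gene at 927 CPM against 55.1 CPM, and was detected in 59 of 64 cells. Tyrobp and Fcer1g, the signaling adaptors of activating myeloid receptors, stood at 696 and 496 CPM against 62.8 and 63.9 CPM. Mpeg1, a pore-forming protein of phagocytes, stood at 122 CPM against 3.20 CPM and Ms4a6c, a membrane protein of monocytes, at 307 CPM against 24.0 CPM. Csf1r, the receptor for macrophage colony-stimulating factor, stood at 31.5 CPM against 1.66 CPM and was detected in 26 cells.

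Lyz2, which encodes lysozyme, rested on few cells. It had 858 UMIs in the 64 cells, of which 74.1% lay in 5 cells. The highest, with 295 UMIs, came from aged replicate 2 and the next, with 271, from aged replicate 3. Both had all 6 rule genes and at least 43 Ly6c2 UMIs. Without these 2 cells, a choice made after the values were seen, Lyz2 stood at 228 CPM and the monocyte list at 5320 CPM in the other 62. Lyz2 was detected in 86.5% of the other LSK cells, at a median of 2 UMIs.

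Dendritic cell genes were also higher. Of 17 conventional dendritic cell genes 13 were at least doubled and none was at most halved (median log2 ratio 2.74, summed level 3435 CPM against 754 CPM), and of 15 plasmacytoid dendritic cell genes 10 were at least doubled and none was at most halved (median 2.11, 4440 CPM against 1258 CPM). Most of each sum came from 1 gene. Cst3 gave 2681 CPM of the former and was detected in 63 cells, but 44.1% of its UMIs lay in 5 cells and its median was 19 UMIs. Plac8, a small cysteine-rich protein, gave 2576 CPM of the latter and was detected in 64 cells, with a median of 43 UMIs and 22.2% in 5 cells. Both genes are widely expressed, with Cst3 detected in 96.7% and Plac8 in 63.0% of the other LSK cells. Siglech, a surface lectin of plasmacytoid dendritic cells, was detected in 11 of the 64 cells, with 2 to 26 UMIs each, against 0.183% of the other cells. All 11 also had Ly6d (median 28 UMIs), Cox6a2 (median 18), Bst2 (median 34) and Tcf4 (median 8), the last encoding the transcription factor that specifies the plasmacytoid fate, and their median Irf8 was 25 UMIs. In the other LSK cells Ly6d and Cox6a2 were detected in 1.68% and 4.32%, but Bst2 and Tcf4 in 82.5% and 77.1%. Xcr1, the chemokine receptor of cross-presenting dendritic cells, was detected in 4 cells, which all had Batf3 and Id2, transcription factors of the conventional lineage, and between 140 and 747 UMIs of Cd74, the invariant chain of MHC class II. No cell had both Siglech and Xcr1. Such cells were not free of monocyte genes, since F13a1 was detected in 3 of the 11 cells with Siglech and Lyz2 in all 4 with Xcr1. The 11 cells with Siglech came from young replicates 1 and 2, with 2 and 4 cells, and from CASIN replicates 2 and 3, with 4 and 1. The 4 cells with Xcr1 came from aged replicate 2, CASIN replicate 1 and CASIN replicate 2, with 1, 1 and 2 cells. These numbers are too small to compare groups.

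MHC class II genes also rested on few cells. All 8 genes of the list were detected, 7 were at least doubled (median log2 ratio 2.58), and the list summed to 4164 CPM against 609 CPM. Cd74 had a median of 1 UMI per cell, and 68.0% of its 2300 UMIs lay in 5 cells, of which 2 had an Xcr1 UMI.

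Most of the 64 cells had progenitor transcripts. Cd34, a surface antigen of progenitors, was detected in 40, Kit, the stem cell factor receptor used in the sort, in 36, and Flt3, the receptor of early lymphoid and dendritic precursors, in 49. Levels were lower than in other LSK cells for Kit, at 57.1 CPM against 156 CPM, and for Cd34, at 220 CPM against 294 CPM. Of 17 stem cell genes none was at least doubled and 14 were at most halved (median log2 ratio -1.83), beside the 14.6% at most halved among all genes. Procr stood at 10.5 CPM against 84.5 CPM and Mecom at 17.3 CPM against 100.2 CPM. Of 14 lymphoid priming genes 7 were at least doubled and 1 was at most halved (median 1.04). Dntt, the terminal transferase of lymphoid precursors, was detected in 32 cells at a pooled 526 CPM against 223 CPM, and 28 of those 32 also had Cd34. Set by these markers, 36 cells had Cd34 or Dntt without Siglech or Xcr1, and 13 had none of the 4.

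The cells were also parted by F13a1. In the 29 immunoglobulin-poor cells with F13a1 the monocyte list summed to 7197 CPM, against 5190 CPM in the 34 with Irf8 and no F13a1. Ms4a6c stood at 387 CPM against 225 CPM. Lyz2 stood at 1041 CPM against 231 CPM, but the 2 cells highest in Lyz2 both had F13a1. Without them the 27 cells with F13a1 had 227 CPM of Lyz2, 343 CPM of Ms4a6c and 5348 CPM of the monocyte list, so the differences in Lyz2 and in the list rested on these 2 cells. MHC class II genes lay the other way, at 738 CPM against 7801 CPM, as did conventional dendritic cell genes, at 1804 CPM against 5138 CPM. The 5 cells highest in Cd74 all lay among the 34, and without them, again a choice made after the values were seen, these levels in the other 29 of the 34 were 2970 CPM and 2760 CPM. Siglech was detected in 3 of the 29 and in 8 of the 34. Prtn3, the protease 3 of myeloid progenitors, was detected in 28 of the 29 and in 22 of the 34. The 29 cells were deeper, at a median of 26958 UMIs against 17839, which raises detection.

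Genes named by size gave a like picture. The rule for naming took the genes with the highest ratio in pooled members among those of 50 CPM or more that were higher in each of the 3 libraries with 10 or more members, up to 25 genes. Over all 98 cells it was led by Iglc3, Igkc, Iglc2, Mzb1, Iglv1, Slpi and Slamf7, which are antibody genes and genes that were abundant in the immunoglobulin-rich cells. Of these 25 genes, 6 were below the level of the other cells in the immunoglobulin-poor members. Applied to the 64 immunoglobulin-poor cells and the 7 libraries with 3 or more of them, the same rule was led by Aif1, an actin-binding protein of macrophages (77.3 CPM against 0.352 CPM), Plbd1, a phospholipase-like protein of granules (99.1 CPM against 0.805 CPM), Mpeg1, Pld4 (98.4 CPM against 3.77 CPM), Ppfia4, Lgals3, Ifi209 and Lgals1. Aif1 and Plbd1 were detected in 19 and 18 of the 64 cells, with 55.3% and 72.7% of their UMIs in 5 cells, and Mpeg1 was detected in 44. Cst3, which encodes the protease inhibitor cystatin C, was the most abundant gene of this set, at a pooled 2681 CPM against 401 CPM, with the few cells described above holding much of it.

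Other programs are to be read against the same shares over all genes, 4.92% at least doubled and 14.6% at most halved. Of 19 granulocyte genes 2 were at least doubled in the immunoglobulin-poor cells and 9 were at most halved (median log2 ratio -0.95). Cebpe, S100a9, Camp, Ltf, Ngp and Fcnb had no UMI in these cells, while Ctsg, the cathepsin G of early granulocyte and monocyte precursors, stood at 375 CPM against 83.2 CPM. Of the 6 NADPH oxidase partners of Cybb in the annotation 2 were at least doubled, of 25 myeloid transcription factors 5 were and 2 were at most halved, of 24 cytokine and chemokine receptors 8 were and 4 were at most halved, and of 16 Toll-like receptor genes 7 were and 2 were at most halved. Spi1, the master myeloid factor PU.1, stood at 258 CPM against 187 CPM, and Cebpa, required for the myeloid path, at 42.0 CPM against 21.1 CPM. Cd180, the partner of Ly86, stood at 36.0 CPM against 5.13 CPM. Of 20 interferon-stimulated genes 2 were at least doubled and 6 were at most halved, with Bst2 the most abundant at 656 CPM against 186 CPM. Of 18 inflammatory and NF-kB genes 9 were at least doubled and 1 was at most halved, led by the chemokine gene Ccl3 at 469 CPM against 219 CPM. Of 24 immediate early genes 2 were at least doubled and 1 was at most halved, and their median log2 ratio was -0.20, as over all genes. None of the 4 genes Hspa5, Edem2, Dnajb1 and Cdc42 was doubled or halved, and Cdc42, the target of CASIN, stood at 503 CPM against 375 CPM. In cells with Elane and 3 or more rule genes the inflammatory list summed to 2566 CPM, against 2310 CPM in the immunoglobulin-poor cells. There the oxidase, Toll-like and receptor lists stood at 1790, 703 and 1142 CPM, against 1205, 442 and 984 CPM. These rises over other LSK cells were thus shared. Interferon and immediate early lists were lower there, at 469 and 6439 against 1184 and 6645 CPM. In Dntt and Flt3 positive cells the first 4 lists stood at 2000, 815, 134 and 885 CPM.

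Markers of other cell types were low in the 64 cells. The T and NK cell list summed to 91.6 CPM (135 CPM in other LSK cells), the red cell list to 90.1 CPM (499 CPM), the megakaryocyte list to 12.0 CPM (99.2 CPM), the mature macrophage list to 5.26 CPM (5.36 CPM), the mature neutrophil list to 6.76 CPM (70.2 CPM), the mast cell and basophil list to 33.8 CPM (97.9 CPM) and the stromal and endothelial list to 45.1 CPM (36.0 CPM). Ighm, which is transcribed without a rearranged V region in progenitors, was the most abundant gene of the B cell list at 296 CPM and was detected in 59 cells with a median of 6 UMIs.

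Cycling genes parted the sets. The 42 S phase genes of the Seurat list in the annotation summed to 3070 CPM in the immunoglobulin-poor cells (95% Poisson interval 2976 to 3165) and 2109 CPM in other LSK cells, and the 52 G2/M genes to 7040 CPM (6898 to 7184) and 3670 CPM. In the immunoglobulin-rich cells they summed to 458 CPM (392 to 533) and 863 CPM (772 to 963). These intervals cover counting error only and not the spread between mice. The 64 cells were deeper than other LSK cells, at a median of 22018 against 11682 UMIs. The part of depth in these sums was not tested. The S list was not higher in every library, as shown by those without immunoglobulin-rich members, here as CPM of all UMIs. It stood in members at 3195 against 2939 CPM in young replicate 1 and 3032 against 2376 CPM in young replicate 2. In aged replicate 1 it stood at 1475 against 1679 CPM, and in CASIN replicate 1 at 4515 against 2107 CPM.

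**Figure D4:**
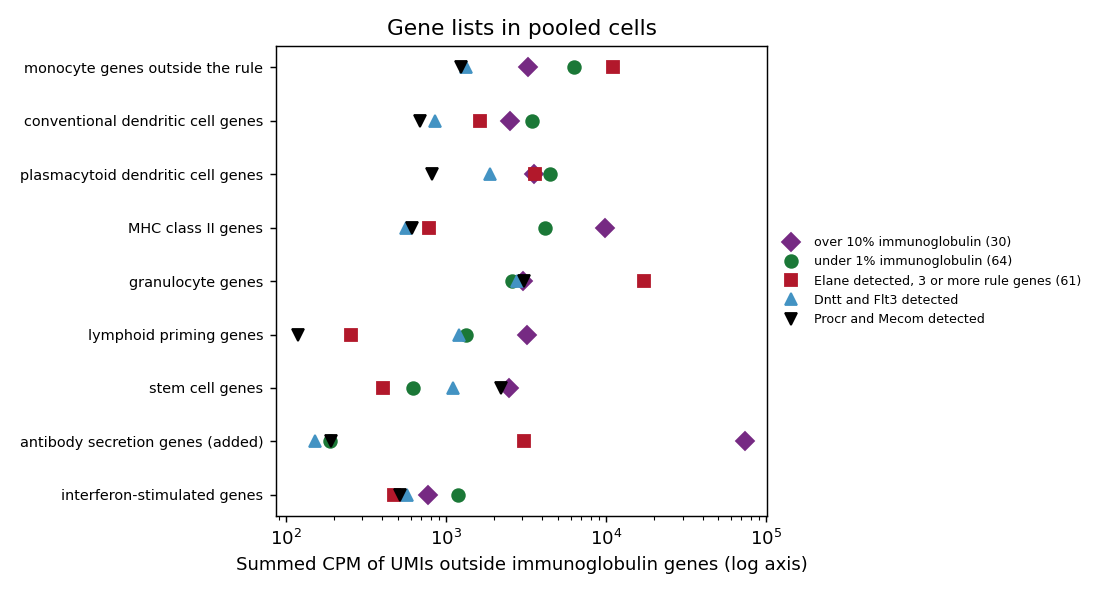
Summed level of 9 gene lists in pooled cells, as CPM of UMIs outside immunoglobulin genes on a log axis, for 2 sets of members and 3 classes of other LSK cells. Green circles, the 64 immunoglobulin-poor cells, lie above the Procr and Mecom positive cells (black) for the monocyte, dendritic, MHC class II and lymphoid lists and below them for stem cell genes, and the purple diamond of the antibody secretion list lies at 73730 CPM.

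Most monocyte genes were low in the 30 immunoglobulin-rich cells, and 7 of the 25 had no UMI. Of the 25 monocyte genes 6 were at least doubled in these cells and 16 were at most halved (median log2 ratio -1.41), beside 9.42% and 43.3% of all genes. Csf1r, Ms4a6c, Tyrobp, Ccr2 and F13a1 had no UMI. The list summed to 3266 CPM against 1327 CPM in other LSK cells, mostly from Ctss, a lysosomal protease of antigen-presenting cells, at 1850 CPM. The list of 12 antibody secretion genes, chosen after these cells had been seen, was at least doubled throughout and summed to 73730 CPM, against 188 CPM in the immunoglobulin-poor cells. Jchain had 5 to 2798 UMIs per cell (median 674.5), and Mzb1, Xbp1 and Prdm1, which serve antibody assembly, the secretory program and its control, were detected in 29, 30 and 21 of the 30. The chaperone Hspa5 stood at 2671 CPM against 805 CPM in other cells.

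Igkc alone took 45.5% of the UMIs of these cells, with 2749 to 20780 UMIs per cell. The most abundant heavy chain constant gene was Ighm in 23 cells, Ighg2b in 4 and Ighg2c in 3, and it held at least 99.3% of the heavy chain constant UMIs of its cell. All 30 had more kappa than lambda constant UMIs. Constant and variable genes of these families are close copies, so reads may be split among them. The most abundant heavy and light variable genes formed 21 pairs in the 30 cells. The pair Ighv11-2 with Igkv14-126, known for antibodies to phosphatidylcholine in the B-1 lineage, was found in 8 cells, 2 in each of the 4 libraries of batch 2, and no other pair in over 2 cells. All 8 had Ighm as their main heavy chain gene, and Ighv11-2 held all of their heavy variable UMIs, 9 to 27 per cell. Igkv14-126 had 21 to 94 UMIs and held at least 55.3% of the light variable UMIs of each cell.

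On genes used by the sort, Ly6a, which encodes Sca1, had 3 to 105 UMIs in each of the 30 cells (median 21), while Kit was detected in 12 and had a median of 0 UMIs. Its level was 56.3 CPM against 156 CPM in other LSK cells. Itgam and Cd8a, 2 of the depleted antigens, had no UMI, and Cd5 had 1 UMI in 1 cell. Ptprc, the gene of which B220 is an isoform that these 3′ counts cannot tell from the others, had 1 UMI in each of 10 cells and stood at 26.8 CPM against 137 CPM in other LSK cells. The 4 intermediate cells held 4319 to 6855 UMIs and had Cybb, Ly86 and Irf8. All 4 had Cd79a, Ms4a1, Ebf1 and Cd74, genes of the B lineage, 3 had Ptprc, and none had a UMI of Jchain, Kit, Cd34 or Ly6c2.

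The condition on Elane kept out more cells than its wording shows. Of 159 cells with 3 or more rule genes, 61 (38.4%) had an Elane UMI, and of 67 with 4 or more, 43 (64.2%) had one. All 6 genes were detected in 25 cells with Elane and in 5 without. The 61 cells numbered 0, 8 and 3 in the young, 6, 19 and 8 in the aged and 3, 5 and 9 in the CASIN libraries. Among them 4 were immunoglobulin-rich. The 57 with under 1% immunoglobulin UMIs, at a median of 26604 UMIs against 22018 in the immunoglobulin-poor members, had a higher summed level of monocyte genes than those members, at 11324 CPM against 6265 CPM, and of granulocyte genes, at 17690 CPM against 2578 CPM. Plasmacytoid dendritic cell genes stood at 3604 CPM against 4440 CPM and MHC class II genes at 274 CPM against 4164 CPM. Most of both plasmacytoid sums came from Plac8, at 3099 CPM in all 61 cells and 2576 CPM in the immunoglobulin-poor members. Of the 15 plasmacytoid genes 12 were at least doubled in those members over the 61 cells, and 0 were at most halved. Siglech and Xcr1 had no UMI in the 61 cells. The share of the 57 cells was 0.176% ± 0.181 in young, 0.614% ± 0.390 in aged and 0.291% ± 0.0320 in CASIN libraries (SD, n = 3 each). The aged libraries lay above those of both other groups without overlap, the lowest at 0.382% and the highest of the others at 0.362% (exact permutation p = 0.1 for each, the smallest possible, and 0.15 after adjustment over 3 comparisons). This set of cells was not planned for a share test, and the adjustment does not cover the other sets of cells that were compared. Aged from young differed by 0.201 points in batch 1 and 0.565 in batch 2, and CASIN from aged by -0.110 and -0.402. Aged replicate 2, at 1.06%, stood apart, and without it the differences were 0.213 and -0.0976 points. With batch as a stratum, which allowed only 9 arrangements, the exact permutation p-values were 0.222 and 0.444. The p-values without strata were equal with the 4 immunoglobulin-rich cells kept.

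**Figure D5:**
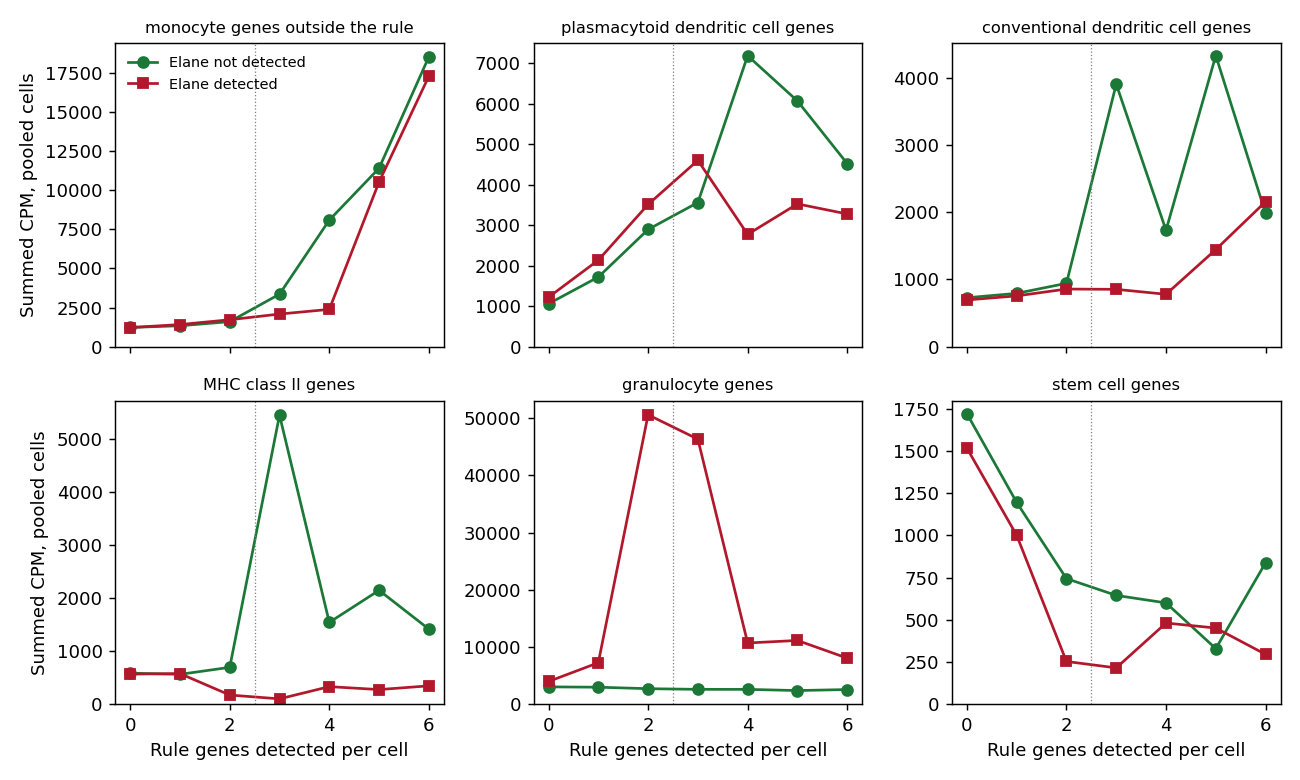
Summed CPM of 6 gene lists in pooled cells under 1% immunoglobulin UMIs, by the number of rule genes detected in a cell (0 to 6), for cells without (green circles) and with Elane (red squares), with the threshold of the rule as a dotted line. Monocyte genes stood at 18540 CPM without and 17302 CPM with Elane at 6 rule genes, and granulocyte genes stayed between 2393 and 3035 CPM along the whole green line, where points from 4 genes on hold 5 to 12 cells. The 5 cells of the green point at 6 include those with 295 and 271 Lyz2 UMIs from aged replicates 2 and 3.

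At the threshold itself, cells with 2 rule genes differed from those with 3. The 236 immunoglobulin-poor cells with 2 rule genes and no Elane had a median of 20281.5 UMIs, and the 40 with 3 had one of 23449. Irf8 was detected in 99.2% of the former, at a median of 2 UMIs where detected, and in 97.5% of the latter, at a median of 6. Dntt was detected in 91.5% and 67.5%, Cd34 in 91.5% and 72.5%, and Mpeg1 in 36.0% and 57.5%. In the 24 members with 4 or more rule genes these shares were 20.8%, 45.8% and 87.5%, and Siglech was detected in 37.5%. Monocyte genes summed to 1596 CPM at 2 rule genes and 3354 CPM at 3. The members were deeper than other LSK cells, at a median of 24024 against 11682 UMIs, and depth raises the number of genes detected. When cells were thinned to 4000 UMIs before the rule was applied, and those with fewer UMIs, 2 members and 367 others, were left out of members and totals alike, 49 cells met it, 1 of them immunoglobulin-rich.

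The last question was whether age or CASIN changed the share of such cells among LSK cells. Members made up 0.582% ± 0.191 of the cells of a young library, 0.698% ± 0.520 of an aged one and 0.602% ± 0.313 of a CASIN one (SD, n = 3 libraries each). The ranges of the 3 groups overlapped. Aged libraries exceeded young ones by a mean of 0.116 percentage points (p = 0.8, two-sided exact permutation test), with -0.120 in batch 1 and 0.113 in batch 2. The difference of CASIN from aged was -0.0957 (p = 0.8, same exact test), with 0.357 in batch 1 and -0.528 in batch 2. The difference of CASIN from young was 0.0203 (p = 1, same exact test), with 0.238 in batch 1 and -0.415 in batch 2. The p-values adjusted over the 3 comparisons were all 1, and 3 libraries against 3 cannot give an exact p below 0.1. Aged replicate 3 held 1.30% members (95% Wilson interval 0.866% to 1.94%), above the other 8 libraries at 0.328% to 0.943%, and 13 of its 23 members were immunoglobulin-rich.

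Counted without the immunoglobulin-rich and intermediate cells, the share was 0.375% ± 0.212 in young, 0.354% ± 0.139 in aged and 0.488% ± 0.425 in CASIN libraries (SD, n = 3 each). The differences were -0.0202 points for aged from young (exact p = 0.9), 0.134 for CASIN from aged (exact p = 0.6) and 0.114 for CASIN from young (exact p = 0.8), and all 3 adjusted p-values of these permutation tests were 0.9. The lowest library was CASIN replicate 3, with 1 such cell (0.0410%), and the highest CASIN replicate 2, with 16 (0.887%). By batch, 0.542% of cells in batch 1 and 0.225% in batch 2 were immunoglobulin-poor members. Aged from young differed by -0.161 points in batch 1 and 0.207 in batch 2. In the same order CASIN from aged differed by 0.393 and -0.331 and CASIN from young by 0.233 and -0.124, so each difference changed sign. After thinning to 4000 UMIs before the rule, which left 49 members, the difference of aged from young was 0.223 points, with each aged library above each young one (exact permutation p = 0.1, the smallest possible).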

How the data were processed

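The libraries were made with 10x Genomics 3′ chemistry. The authors mapped reads to GRCm38 (mm10) with Cell Ranger 3.1.0, counted UMIs per gene and barcode, and deposited these counts without normalization for barcodes called as cells. UMIs were read as deposited (31053 genes), filtered as stated in the results, and pooled over cells for CPM, with Python 3.11.15, numpy 2.4.6, scipy 1.17.1 and pandas 2.3.3. Doublets were called per library with Scrublet in scanpy 1.11.5 (0.576% of cells, no member). Of 15882 distinct cell barcodes 62 occurred in 2 or more libraries, 1 of them in a member. Immunoglobulin genes were 392 heavy and light chain genes. The planned edgeR tests between groups needed 10 members in every library and were not run. Shares were compared over libraries by an exact permutation test, two-sided. Named genes were the rule genes, the genes of the lists, and up to 25 genes by ratio. The members and lists were chosen with earlier results of these data known. The study states biological replicates for its experiments in general, and the labels do not tie libraries to mice. The pooled ratio was tested on simulated data and the thinning was checked on the cells themselves. Figures were drawn with matplotlib 3.10.9.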

Additional observations from a re-analysis of the deposited data

How the results depend on the processing

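The number of members rested on the rule and the depth. It was 98, and became 372 with 2 or more rule genes, 159 with no condition on Elane and 49 after thinning to 4000 UMIs, and 68 with the regression filter or without immunoglobulin-rich members. The percent of immunoglobulin-rich members, 30.6, became 16.9, 21.4 and 2.04 under the first 3 of these and 0 with the regression filter, and ran from 22.7 to 35.8 with 1 library left out. The share difference of aged from young, 0.116 points, became -0.623 with 2 rule genes, -0.0200 with the regression filter and -0.0227 without immunoglobulin-rich members. It grew to 0.642 with a mitochondrial limit of 5%, 0.565 with no condition on Elane and 0.223 after thinning, where each aged library lay above each young one (exact permutation p = 0.1). It ran from -0.184 (without aged replicate 3) to 0.274 with 1 library left out. That of CASIN from aged, -0.0957, became 0.551 with 2 rule genes, 0.0922 with the regression filter, 0.0328 after thinning and 0.0939 without immunoglobulin-rich members, grew to -0.581 with the mitochondrial limit of 5% and -0.443 with no condition on Elane, and ran from -0.266 to 0.204 (without aged replicate 3), with 0.0417 without CASIN replicate 3. That of CASIN from young, 0.0203, became -0.0723 with 2 rule genes, grew to 0.256 after thinning, 0.122 with no condition on Elane, 0.0612 with the mitochondrial limit, 0.0722 with the regression filter and 0.0712 without immunoglobulin-rich members, and ran from -0.150 (without CASIN replicate 2) to 0.158, with -0.0855 without young replicate 1. Each of the 3 differences thus changed sign under at least 1 setting, and the design allows no exact p below 0.1. The S and G2/M lists are given here as CPM of all UMIs, immunoglobulin ones included, where other LSK cells stood at 2101 and 3656 CPM. A setting that leaves out immunoglobulin-rich members thus also changes the total to which counts are scaled. The summed S list, 1881 CPM in all members, became 2669 with 2 rule genes, 2534 with no condition on Elane, 3421 after thinning and 3032 with the regression filter or without immunoglobulin-rich members, and ran from 1718 to 2158 with 1 library left out. The G2/M list, 4278 CPM, became 5528, 4707, 6855 and 6945 under the same settings and ran from 3554 to 5094. The 25 genes named by ratio over all members were at least doubled in 17 to 25 cases under every background and set of cells tried. The lowest count, 17, was that of the immunoglobulin-poor members alone. The genes were picked by this ratio in the same cells, so these counts are no independent support. A threshold of 4 rule genes, met by 24 members, left under 10 cells in all 9 libraries and was not run, nor were the alternatives to the gene tests. With the replicate number as a block the 3 differences kept their values, 0.116, -0.0957 and 0.0203, with exact permutation p-values of 0.75, 1 and 1. The numbers did not pair the libraries: over 9750 genes, deviations from the group mean correlated at 0.816 to 0.939 between same-numbered libraries of 1 batch and at -0.710 and -0.704 between those of different batches. With batch as a stratum, chosen after seeing the data, aged from young became -0.00308 and CASIN from young -0.0885. With 98 cells, intervals and pooled levels cover counting error only.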

Other observations

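Among the 16412 barcodes outside the limits on UMIs, genes and mitochondrial UMIs, 65 met the gene rule (0.396%, where a count of 0 would allow up to 0.0183%). They were 4 of 2993 such barcodes in the young (0.134%), 46 of 7806 in the aged (0.589%) and 15 of 5613 in the CASIN libraries (0.267%). By library the share was 0% to 0.446% in batch 1 and 0.209% to 0.784% in batch 2. Of the 65, 42 had over 40000 UMIs, and 32 of these had at least 10% of their UMIs in immunoglobulin genes, all in batch 2. The upper limit on UMIs thus kept out 32 immunoglobulin-rich barcodes beside the 30 among the members. Of the immunoglobulin-rich barcodes outside the filters, 36 of 176 were in batch 1.

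Among the 87 immunoglobulin-rich cells that did not meet the rule, 73 had UMIs of both a heavy and a light variable gene, in 29 pairs. The pair Ighv11-2 with Igkv14-126 was found in 15 of them, and the next most frequent pair also in 15. The 15 cells with the former numbered 1 in young replicate 1, 6 in aged replicate 2, 3 in aged replicate 3, 1 in CASIN replicate 2 and 4 in CASIN replicate 3, and their heavy variable UMIs ran from 1 to 63.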
